A study of Mus musculus with 6 samples.

Results

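Histone cluster genes are the protein-coding genes that older mouse nomenclature named Hist1h, Hist2h, Hist3h and Hist4h after the 4 clusters they lie in. The deposited count table carries the old prefix for 8 of these genes and newer symbols (H1f2, H2bc4 and so on) for the rest, so members were chosen as protein-coding rows whose gene identifier has an old-prefix symbol in GENCODE M21. This gave 67 genes of 21936 protein-coding rows and 55487 rows in all. Another 3 rows with such a symbol were annotated as pseudogenes and were left out.

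The study sequenced poly(A) RNA from cartilaginous tissue of the knee joint of mice at postnatal day 6, with 3 wild-type (WT) libraries and 3 libraries from mice with Hbb conditionally deleted in chondrocytes (Hbb-cKO). Hbb-bs and Hbb-bt encode the adult beta-globins, and the floxed allele, made on the C57BL/6J background, targets exons of both. In the study Cre was driven either by Col2a1-CreERT2 with tamoxifen, which acts in chondrocytes, or by Prx1-Cre, which acts in limb mesenchyme and chondrocytes. The study gives the name Hbb-cKO to the Col2a1-CreERT2 line, and the labels here speak of a conditional knockout in chondrocytes. Neither labels nor sequencing methods name the line of these libraries. They also do not say whether the WT mice carried floxed alleles or Cre, or how many mice made up a library. The study describes the samples of its cartilage RNA-seq as biologically independent, and p-values measure the spread between these libraries.

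Core histones H2A, H2B, H3 and H4 form the protein spool of the nucleosome, and the linker histone H1 binds the DNA where it enters and leaves. Most cluster genes are replication dependent: they lack introns, are transcribed in S phase, and give mRNAs that end just after a conserved stem-loop in place of a poly(A) tail. Some members can also use a poly(A) signal further downstream, and such polyadenylated transcripts are known from cells that are differentiating or have left the cell cycle. A poly(A)-selected library therefore counts mainly the tailed transcripts of these genes, and the counts here are not the total histone mRNA.

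The stem-loop was searched for on the transcript strand of the annotated models, since it marks the end of the mRNA without a tail. It was found downstream of the coding sequence in 45 of the 67 members, and in 9 of the 21628 other protein-coding genes (0.0416%) anywhere in the longest protein-coding transcript. The 16 bases of the stem-loop, in capitals below, took the form seen in H1f2 in 25 members, that of H4c8 in 7 and that of H2bc3 in 6. One sequence of each form is shown, from GENCODE M21 transcripts on GRCm38, written 5′ to 3′ with 5 bases before and 9 bases after the stem-loop.
H1f2: caaaaGGCTCTTTTCAGAGCCaccactccc
H4c8: ccaaaGGCCCTTTTCAGGGCCgcccacatt
H2bc3: ccaaaGGCTCTTTTAAGAGCCacccacact

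Poly(A) signals (AATAAA or ATTAAA, searched on the transcript strand in its last 40 bases) were found in 17 members, which is 25.4% of them, against 70.4% of the other protein-coding genes. The last 30 bases of 4 such models are shown because they carry the tail end of a well counted member, with the signal in capitals.
H1f2: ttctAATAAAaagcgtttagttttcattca
H4c9: tctgtttacATTAAAagtattctatgctaa
H2bc21: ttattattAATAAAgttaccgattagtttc
H3c14: taatcccAATAAAaatttaacacactgcta
A match is a string of letters in an annotated model and was not tested as a site in these cells.

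The libraries held between 16544800 and 20969914 counts each. Hbb-bs and Hbb-bt together stood at 6912 to 16811 CPM in WT and 4195 to 5444 in Hbb-cKO, where CPM stands for counts per 1000000 counts of the library, scaled by TMM (a factor per library that sets the bulk of genes equal). These globins remained among the abundant transcripts of the Hbb-cKO libraries, and blood in the tissue and chondrocytes cannot be told apart as their source. The 10 chondrocyte markers were all measured and summed to 32348 to 41068 CPM in WT and 16731 to 55896 in Hbb-cKO. Skeletal muscle markers reached a like level, 28691 to 45978 and 22989 to 31839. Xist and Y-linked transcripts occurred together in 3 libraries (WT 3, Hbb-cKO 1 and Hbb-cKO 3), Y-linked counts were at 0 in WT 1 and WT 2, and Xist was at 6 counts in Hbb-cKO 2, so the groups were not matched in sex, which the labels do not give.

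Counts were obtained for 64 of the 67 histone cluster genes, but most were very low. The members held 24412 counts over the 6 libraries, 0.0223% of all counts. Their median was 29 counts per gene over the 6 libraries, against 769 for all protein-coding rows. Detection itself was common, with 95.5% of members having a count against 82.2% of protein-coding rows, and 43 members had a count in every library. Fewer than 10 counts were found for 14 members, 10 or more but fewer than 100 for 37 and 100 or more for 16. No count was found for H2ac1, H2bc1 and H2ac19. A count of 0 among 109343540 allows up to 0.0274 CPM, from counting error only. H2ac1 and H2bc1 encode testis-enriched H2A and H2B variants, whereas the model of H2ac19 is wholly identical to part of that of H2ac18 and reads cannot be assigned between them.

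A handful of genes carried nearly all of the signal. The linker histone gene H1f2 (H1.2, Hist1h1c, ENSMUSG00000036181, chromosome 13, 23738808 to 23740367) held 12150 counts, or 49.8% of the counts of all members. With the H2B gene H2bc4 (Hist1h2bc, ENSMUSG00000018102, chromosome 13, 23684199 to 23692908) at 4423 counts it reached 67.9%. The H2A gene H2aw (Hist3h2a, ENSMUSG00000078851, chromosome 11, 58954685 to 58956830) followed at 1904 and the H2B gene H2bc8 (Hist1h2bg, ENSMUSG00000058385, chromosome 13, 23571396 to 23572013) at 1143. These 4 genes took 80.4%, and no other member reached 1000 counts. H1f2 ranked 1414th of all rows of the table by mean level.

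**Figure D1:**
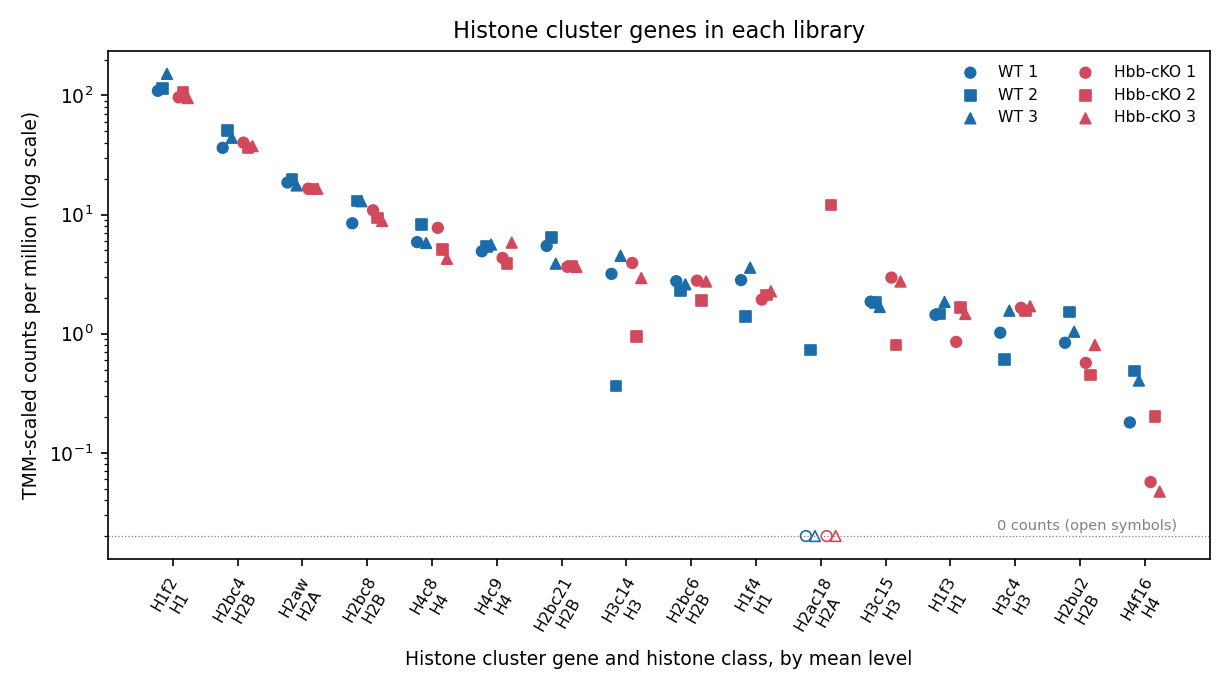
TMM-scaled CPM (log axis) of 16 histone cluster genes in each of the 3 WT (blue) and 3 Hbb-cKO (red) libraries, ordered by mean level, with the histone class under each name and open symbols for 0 counts. H1f2 lies between 95.0 and 152 in the 6 libraries, most other genes lie below 10, and H2ac18 is high in the Hbb-cKO 2 library alone.

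Per kilobase of annotated exon the order changed little at the top. Averaged over the 6 libraries, H1f2 stood at 71.8 CPM per kb, H2bc4 at 35.3, H2bc8 at 17.1, the H4 gene H4c8 at 13.1 and H2aw at 8.17. For scale on the same measure, the replication-independent linker histone H1f0 stood at 201, and H3f3a and H3f3b, both of which encode the H3.3 variant, at 84.4 and 108. H1f2 was thus below all 3 of these genes, whose mRNAs carry poly(A) tails. They are the 3 most abundant of the 11 replacement histone variants compared below. The others of that list lay below H1f2, the highest of them H2ax at 43.1 CPM per kb. The median member was at 0.366 CPM per kb.

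The annotated 3′ end went with the number of counts. Members fell into those whose transcript model runs more than 100 bases past the stem-loop (23 genes), those whose model ends within 100 bases of it (22 genes) and those with no stem-loop in the model (22 genes, many of them models that stop near the end of the coding sequence). The 23 genes with a long downstream stretch held 17612 counts, 72.1% of the total, with a median of 93 per gene. The 22 genes ending near the stem-loop held 1417 counts (5.8%), with a median of 20.5. The 22 genes without a stem-loop held 5383 counts, of which 4423 were those of H2bc4, and their median was 14. The median exon length differed in the same order, at 1249, 483.5 and 408 bases, and per kilobase the medians lay closer together, at 0.566, 0.439 and 0.235 CPM. These are descriptions across genes, and the rules for the 3′ ends were set after the totals of the genes had been seen.

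**Figure D2:**
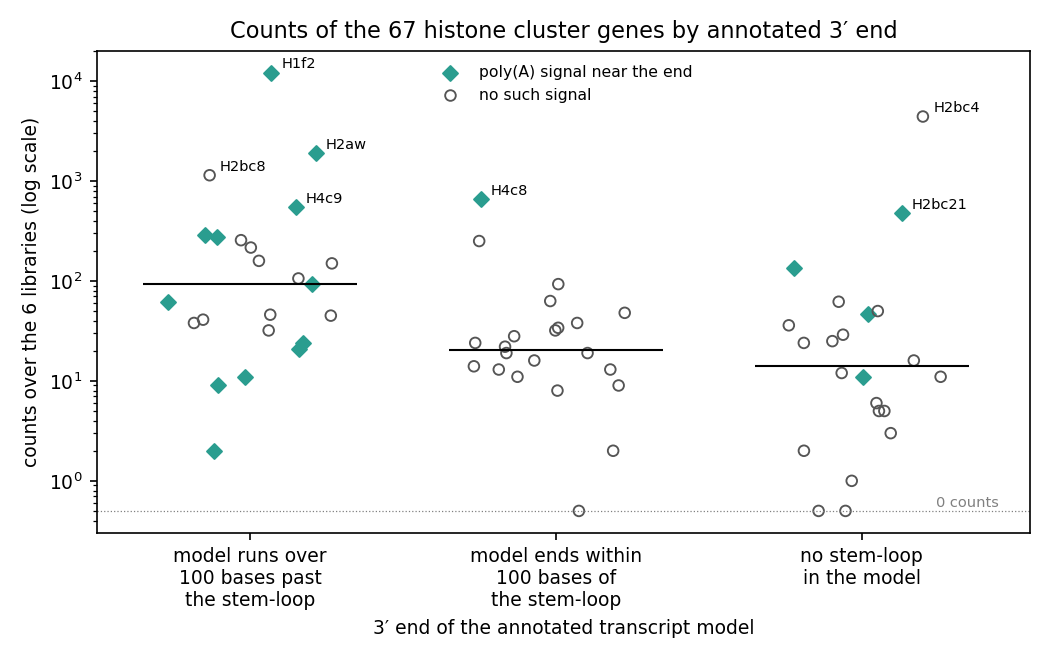
Counts over the 6 libraries (log axis) of each of the 67 histone cluster genes, grouped by the 3′ end of the annotated transcript model; filled diamonds have a poly(A) signal in the last 40 bases, open circles do not, and black lines are medians. The medians are 93, 20.5 and 14 counts from left to right, and each group holds a few genes far above its median.

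Members with many counts had tails annotated in different ways. H1f2 is a single-exon gene whose model goes on for 840 bases after the stem-loop and ends at the signal shown above. H2aw runs 1643 bases past its stem-loop and H4c9 330 bases, both to a poly(A) signal. H4c8 was the exception among the short models: it ends 46 bases past the stem-loop, has a signal, and held 660 counts, whereas the other 21 genes of its group held 757 together. H2bc4 has 2 exons in its model, with 742 bases after the coding sequence and no stem-loop there. H2bc21 (Hist2h2be, chromosome 3, 96221119 to 96223738) has 2192 bases after the coding sequence, no match to the stem-loop and no 50-base window in common with another gene, so its 479 counts rest on sequence of its own.

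Sequence shared between copies, or with overlapping genes, limits the other values. Each transcript was cut into 50-base windows, and 34 of the 67 members had at least 50% of their windows in another gene. For H1f2 this share was 8.5% and for H2bc4 30.6%, whereas for Hist1h2bq, an H2B gene that still bears the old prefix, it was 97.3%. Counts of members with a high share may belong in part to their copies or to overlapping genes. The 8 genes with the old prefix in the table, which have a median of 21.5 counts, all lie in cluster 1 and held 348 counts together: 58, 58 and 51 in WT 1, 2 and 3 and 57, 46 and 78 in Hbb-cKO 1, 2 and 3.

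The clusters differed in what they gave. Cluster 1 on chromosome 13 (54 genes between 21715763 and 23934851, GRCm38) held 86.5% of the counts. Cluster 2 on chromosome 3 (10 genes, 96219865 to 96270132) held 5.18%, and cluster 3 on chromosome 11, which has only H2bu2 and H2aw as protein-coding members, held 8.18%. The single gene of cluster 4, H4f16 on chromosome 6 (136801553 to 136804415), encodes H4 and held 24 counts. Cluster 3 owed its share to H2aw, which had more counts than all 10 genes of cluster 2.

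By histone class, the 6 H1 genes held 51.7% of the counts, the 18 H2B genes 28.1%, the 18 H2A genes 10.3%, the 13 H4 genes 5.95% and the 12 H3 genes 3.92%. The core classes thus differed widely in these counts of tailed transcripts, although nucleosomes hold them in equal amounts. Within H1, H1f2 held 12150 of 12612 counts, H1f4 256 and H1f3 159. H1f1 and H1f5 held 16 and 29 counts and H1f6, the testis H1, 2.

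The comparison of Hbb-cKO with WT asks which transcripts of the joint cartilage change when Hbb is deleted in chondrocytes. No histone cluster gene passed the threshold (adjusted p under 0.05, edgeR quasi-likelihood test with Benjamini-Hochberg adjustment over 17175 genes). In the same fit 18 genes were called (0.105% of those tested). A filter on low counts left 17 of the 67 members to be tested (25.4%, against 65.5% of protein-coding rows), and their smallest adjusted p was 0.494. At an unadjusted p under 0.05 a single member was lower in Hbb-cKO (background 5.22%) and none was higher (background 4.89%). DESeq2 gave an adjusted p to 42 members and called none (background 1.16%), with none at an unadjusted p under 0.05.

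Values below 0 prevailed among the 17 tested. Their log2 fold changes ran from -0.88 to 0.62 with a median of -0.19, against -0.01 over all genes tested, and 15 of 17 were below 0. In 4 of the 17 every Hbb-cKO library was below every WT library (H1f2, H2aw, H2bc21 and H2bu2), where 8.96% of all tested genes did so, and in 0 of the 17 every Hbb-cKO library was above, where 8.7% did so. Since members share libraries, and some share reads, these counts are descriptions and no test of the group was made.

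The summed level of the 67 genes was 215, 243 and 272 CPM in WT 1, 2 and 3 and 208, 211 and 199 in Hbb-cKO 1, 2 and 3. The groups did not overlap, but the lowest WT library lay close to the highest Hbb-cKO library. The means were 243.5 ± 16.6 and 206 ± 3.74 (s.e.m., n = 3 each), or 84.7% of the WT level and -0.24 on the log2 scale. Without H1f2 the sums of 118 ± 6.69 and 107 ± 2.48 overlapped and the difference was -0.14. Without the WT 3 library, which had the highest sum, the difference over all members was -0.15. In such bulk tissue a lower share of the cells that express a gene and a lower level per cell cannot be told apart.

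**Figure D3:**
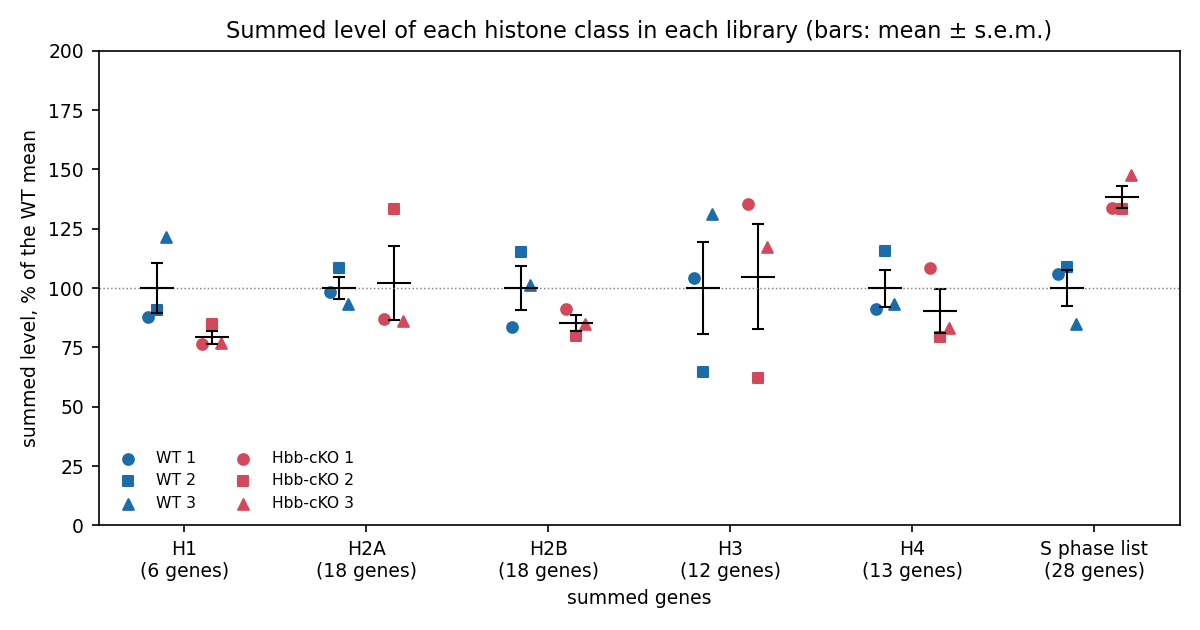
Summed TMM-scaled level of each histone class, and of 28 genes of S phase and proliferation, in each library as a percentage of the WT mean, with the mean ± s.e.m. of each group (n = 3). The H1 sums of Hbb-cKO lie below those of WT, the other classes overlap, and the S phase sums of Hbb-cKO lie above those of WT.

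Linker histones gave the largest part of the difference. H1f2 had 1824, 1884 and 2627 counts in WT 1, 2 and 3 and 1694, 2108 and 2013 in Hbb-cKO 1, 2 and 3. Scaled for library size these were 109, 115 and 152 against 96.3, 106 and 95.0 CPM, with WT 3 standing highest and the groups just apart. The means were 125 ± 13.3 and 99.0 ± 3.36 CPM, and the log2 fold change was -0.34 (SE 0.15, edgeR adjusted p = 0.494). Without WT 3 it was -0.18 (edgeR adjusted p = 0.556). Without WT 1 or WT 2 it was -0.42 or -0.38 (edgeR adjusted p = 0.549 and 0.381). WT 3 also had the lowest WT sum of erythroid markers, 13459 against 26882 and 36866 CPM, and the highest sum of skeletal muscle markers. Whether either has a part in the H1f2 value was not tested.

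The other linker histones had far fewer counts. H1f4 (Hist1h1e, chromosome 13, 23620629 to 23622558) had 47, 23 and 62 counts in WT and 34, 42 and 48 in Hbb-cKO, with a log2 fold change of -0.31 (SE 0.35, edgeR adjusted p = 0.828). H1f3 (Hist1h1d, chromosome 13, 23553262 to 23560686) had 24, 24 and 32 against 15, 33 and 31, at -0.25 (SE 0.32, edgeR adjusted p = 0.855). Both pairs of groups overlapped, and single libraries moved both values. H1f4 was at -0.59 without WT 2 and at -0.002 without WT 3. H1f3 was at -0.44 without Hbb-cKO 2, at -0.12 without WT 3 and at -0.015 without Hbb-cKO 1. The exons of H1f4 overlap a long model of H2bc6 on the same strand, and reads there can be counted for either. The H1 class summed to 130 ± 13.9 CPM in WT and 103 ± 3.49 in Hbb-cKO, without overlap.

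Among H2B genes, which made up the next class, H2bc4 had 606, 830 and 764 counts in WT and 706, 723 and 794 in Hbb-cKO. The groups overlapped, and the log2 fold change was -0.20 (SE 0.14, edgeR adjusted p = 0.678), or -0.07 without WT 2 and -0.31 without WT 1. H2bc8 had 141, 214 and 224 against 191, 186 and 187 counts, at -0.25 (SE 0.20, edgeR adjusted p = 0.74). Here WT 1 was the lowest and the other WT libraries the highest, and the value was -0.42 without WT 1, -0.13 without WT 2 and -0.15 without WT 3. H2bc6 (Hist1h2be, chromosome 13, 23583670 to 23621124) had 46, 38 and 45 against 49, 38 and 58, at -0.05 (SE 0.24, edgeR adjusted p = 0.974).

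Both H2B genes outside cluster 1 that were tested lay lower in every Hbb-cKO library. H2bc21, which can be told from its copies, had 91, 106 and 67 counts in WT and 64, 74 and 77 in Hbb-cKO. Scaled, the Hbb-cKO values of 3.64, 3.71 and 3.63 CPM lay under 5.45, 6.45 and 3.86 in WT, of which WT 3 was close to the Hbb-cKO range. The log2 fold change was -0.52 (SE 0.23, edgeR adjusted p = 0.497), moving to -0.33 without WT 2 and to -0.70 without WT 3. H2bu2 (Hist3h2ba, chromosome 11, 58948920 to 58949533), the neighbour of H2aw, was the member with an unadjusted p under 0.05. It had 14, 25 and 18 counts in WT and 10, 9 and 17 in Hbb-cKO, at -0.88 (SE 0.38, edgeR adjusted p = 0.494). These counts were few, and Hbb-cKO 3 with 0.802 CPM nearly met WT 1 with 0.838.

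The H2A gene H2aw gave the steadiest values. Its counts were 310, 325 and 304 in WT and 290, 326 and 349 in Hbb-cKO, or 18.6, 19.8 and 17.5 against 16.5, 16.3 and 16.5 CPM. The groups were apart by a small step and varied little within themselves. The log2 fold change was -0.18 (SE 0.12, edgeR adjusted p = 0.662). Part of its exon lies in Trim17 on the same strand, a gene with 38 counts in all libraries together.

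H2ac18, an H2A gene of cluster 2, was counted almost only in 1 library. It had 239 counts in Hbb-cKO 2, 12 in WT 2 and 0 in the other 4 libraries, and did not pass the filter. Its model (chromosome 3, 96245497 to 96246082) has all of its windows in other genes: it is overlapped by Gm20634 on the same strand and by Gm20633 on the opposite strand. Gm20634 had 36 counts in Hbb-cKO 2, 98 in WT 2 and 0 elsewhere, the same libraries in which H2ac18 was counted. The identical copy H2ac19, whose whole model lies opposite to Gm20632, had 0 counts, while Gm20632 had 504, 532 and 567 counts in WT and 459, 410 and 454 in Hbb-cKO. Neither labels nor methods state whether counting used strand, so reads of a histone gene and of its antisense partner cannot be told apart.

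The H2A class sum followed that gene in Hbb-cKO 2, with 30.5 CPM there against 19.8 and 19.7 in Hbb-cKO 1 and 3. The means were 22.8 ± 1.02 CPM in WT and 23.3 ± 3.57 in Hbb-cKO. Cluster 2 likewise was at 10.3 ± 0.360 in WT and 12.7 ± 2.58 in Hbb-cKO, with 17.8 in Hbb-cKO 2 and at most 10.6 in the other Hbb-cKO libraries. The 13 H2A genes of cluster 1 alone summed to 3.81 ± 0.229 and 2.76 ± 0.368, without overlap. These groups nearly met, with WT 3 at 3.40 CPM (59 counts) and Hbb-cKO 1 at 3.30 CPM (58 counts).

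H3 genes were the least counted class. H3c14 (Hist2h3c1, chromosome 3, 96246685 to 96248509) had 53, 6 and 78 counts in WT and 69, 19 and 62 in Hbb-cKO, with a log2 fold change of -0.05 (SE 0.81, edgeR adjusted p = 0.992). It was low in WT 2 and Hbb-cKO 2 alone, the libraries with counts in Gm20634, which covers the whole H3c14 model on the same strand. Summed with Gm20634 the counts became 53, 104 and 78 against 69, 55 and 62, and WT 2 was the highest library. How the counting divided reads between the overlapping models was not tested. H3c15 (Hist2h3c2, chromosome 3, 96238108 to 96239127), with 63.5% of its windows in H3c14, had 31, 30 and 29 against 52, 16 and 58, at 0.28 (SE 0.45, edgeR adjusted p = 0.892), or -0.001 without Hbb-cKO 1, 0.67 without Hbb-cKO 2 and 0.065 without Hbb-cKO 3.

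H3c4 (Hist1h3d, chromosome 13, 23575763 to 23577011) had the highest fold change of the tested members. Its counts were 17, 10 and 27 in WT and 29, 31 and 36 in Hbb-cKO, and scaled, WT 3 at 1.56 CPM lay within the Hbb-cKO range of 1.55 to 1.70. The log2 fold change was 0.62 (SE 0.36, edgeR adjusted p = 0.611), and it was 1.00 without WT 3 and 0.36 without WT 2. The H3 class summed to 8.57 ± 1.66 and 8.99 ± 1.89 CPM.

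Of the H4 genes, H4c8 (Hist1h4h, chromosome 13, 23531050 to 23531519) had 98, 135 and 100 counts in WT and 136, 101 and 90 in Hbb-cKO, at -0.22 (SE 0.27, edgeR adjusted p = 0.842). H4c9 (Hist1h4i, chromosome 13, 22040636 to 22041362) had 82, 89 and 97 against 76, 77 and 123, at -0.19 (SE 0.21, edgeR adjusted p = 0.828). Both values moved with single libraries. H4c8 was at -0.025 without WT 2, at -0.047 without Hbb-cKO 3, at -0.15 without Hbb-cKO 2 and at -0.50 without Hbb-cKO 1. H4c9 was at -0.065 without Hbb-cKO 2 and at -0.37 without Hbb-cKO 3. The groups overlapped for both genes and for the class, which summed to 14.1 ± 1.10 and 12.7 ± 1.29 CPM. H4f16, the gene of cluster 4, had 3, 8 and 7 counts in WT and 1, 4 and 1 in Hbb-cKO. It did not pass the filter, and at such counts no difference could be read.

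The remaining 3 tested members were H2bc9, Hist1h2ao and Hist1h2bq, with log2 fold changes of -0.00, -0.14 and -0.05 and overlapping groups.

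The 50 members that were not tested held 1339 counts in all, and 47 of them had a count. Leaving H2ac18 aside, none had more than 20 counts in any library. Summed, the 48 that remain without H2ac18 and H2ac19 had 161, 194 and 190 counts in WT and 195, 156 and 192 in Hbb-cKO, or 10.8 ± 0.627 and 9.32 ± 0.951 CPM, with overlapping groups. Most replication-dependent genes of the clusters are in this set. With no filter edgeR gave values for 64 members, with a median log2 fold change of -0.16, and called none.

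Genes that work with histones were compared in the same fit. Of 11 replacement histone variants, most of which are made outside S phase from tailed mRNAs, 9 were above 0 and 2 below, with a median log2 fold change of 0.22, and none passed the threshold. At an unadjusted p under 0.05 there were 3 of 11, all higher (background 4.89%). H1f0, the replacement linker histone, was at 353, 383 and 372 CPM in WT and 438, 496 and 437 in Hbb-cKO, without overlap (log2 fold change 0.31, SE 0.12, edgeR adjusted p = 0.434). H3f3b was at 0.12 (SE 0.13) and H3f3a at -0.06 (SE 0.14), with edgeR adjusted p of 0.81 and 0.928. Thus H1f0 lay higher and H1f2 lower in every Hbb-cKO library, and neither difference passed the threshold.

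Factors of histone gene transcription and of mRNA 3′ end formation showed no called gene among 18 tested (background 0.105%). Of these 12 were above 0 and 6 below, with a median of 0.09. At an unadjusted p under 0.05, 2 of 18 were higher (background 4.89%) and 0 lower (background 5.22%). Without overlap of the groups, 4 were higher (background 8.7%) and 1 lower (background 8.96%). The 3 most abundant were Sympk, a scaffold of the cleavage complex, at -0.11 (SE 0.11), Srrt, which links the cap to 3′ end formation, at 0.10 (SE 0.12), and Upf1, which acts in histone mRNA decay, at -0.09 (SE 0.10), with edgeR adjusted p of 0.797, 0.84 and 0.826. Slbp, the protein that binds the stem-loop, was chosen here after its values were seen. It was at 18.2, 18.7 and 19.8 CPM in WT and 21.6, 25.0 and 25.9 in Hbb-cKO, without overlap, at 0.36 (SE 0.12, edgeR adjusted p = 0.386).

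Histone chaperones and the acetyltransferase Hat1 gave 1 called gene of 21 (background 0.105%). The list was chosen with earlier results of these data known, so this count is a description only. Hjurp, the chaperone that loads the centromeric variant Cenpa, fell from 131, 128 and 121 CPM in WT to 68.9, 71.3 and 70.8 in Hbb-cKO (log2 fold change -0.85, SE 0.098, edgeR adjusted p = 0.0346). Its groups lay far apart, and the size held between -0.82 and -0.88 when any single library was left out. The call itself was lost without WT 1, WT 2, Hbb-cKO 1, Hbb-cKO 2 or Hbb-cKO 3 (edgeR adjusted p = 0.204, 0.052, 0.15, 0.124 and 0.24). Of the others 17 were above 0 and 3 below, and the median of the 21 was 0.14. The 3 most abundant were Rbbp4, a subunit of chromatin assembly factor, at 0.14 (SE 0.10), Npm1 at -0.07 (SE 0.11) and Ssrp1, a subunit of FACT, at 0.32 (SE 0.13), with edgeR adjusted p of 0.696, 0.887 and 0.47.

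Genes of S phase and proliferation were mostly higher in Hbb-cKO, although none of 28 passed the threshold with edgeR and DESeq2 called 3 (background 1.16%). Of the 28, 26 were above 0, the median log2 fold change was 0.45, and 16 had an unadjusted p under 0.05, all of them higher, against the 4.89% given above. Mki67, the proliferation antigen, was at 76.6, 75.6 and 69.2 CPM in WT and 122, 121 and 141 in Hbb-cKO (log2 fold change 0.80, SE 0.11, edgeR adjusted p = 0.072). Top2a, the topoisomerase of dividing cells, was at 0.74 (SE 0.12, edgeR adjusted p = 0.102) and Mcm6, a subunit of the replicative helicase, at 0.35 (SE 0.15, edgeR adjusted p = 0.497). The list summed to 888, 913 and 712 CPM in WT and 1122, 1116 and 1236 in Hbb-cKO, without overlap. WT 3 was thus the lowest library for S phase genes and the highest for H1f2.

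**Figure D4:**
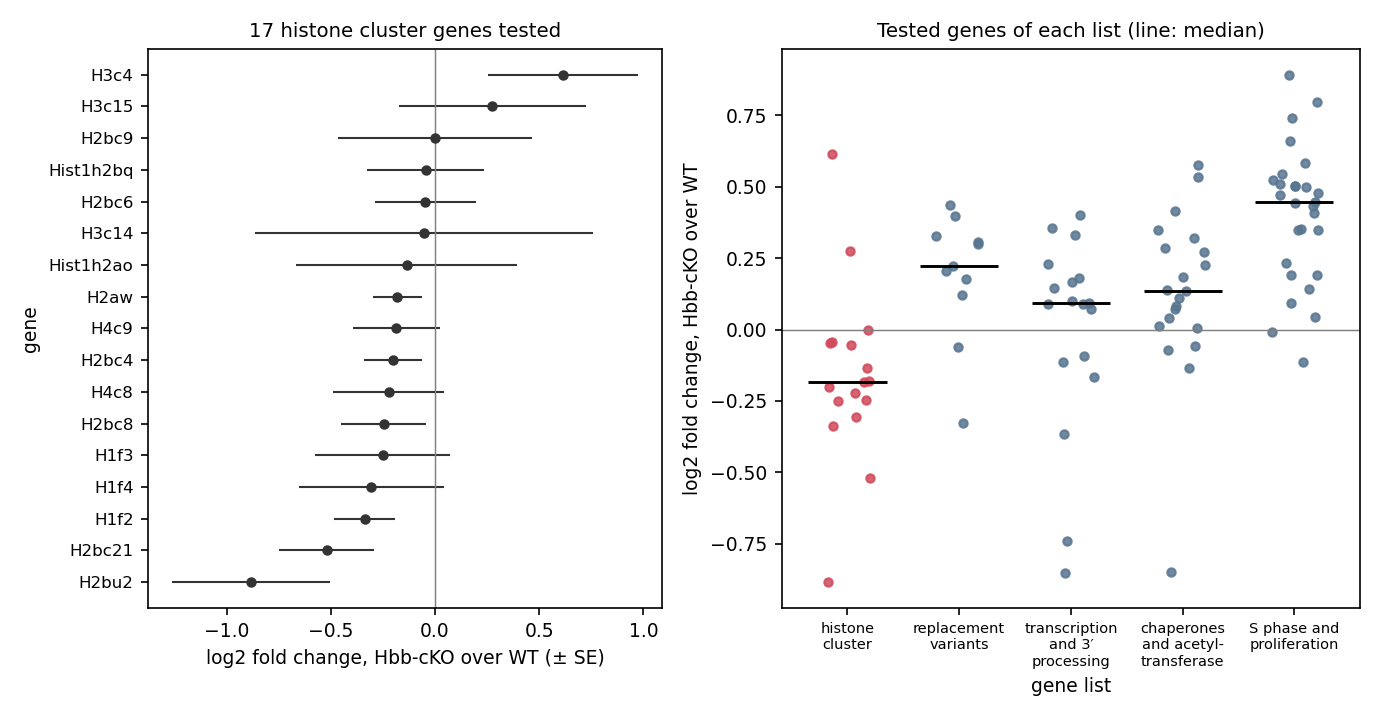
Left, log2 fold change of Hbb-cKO over WT with its SE for the 17 histone cluster genes tested. Right, the log2 fold changes of the tested genes of each list with their median, which is -0.19 for histone cluster genes, 0.22 for replacement variants, 0.09 for transcription and 3′ processing factors, 0.14 for chaperones and 0.45 for S phase and proliferation.

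Markers of other cells also differed in level between the libraries. The 9 erythroid markers measured summed to 13459 to 36866 CPM in WT and 8809 to 11749 in Hbb-cKO. At an unadjusted p under 0.05, 5 of 9 were lower (background 5.22%), with none called by edgeR and 5 by DESeq2 (background 1.16%). Hbb-bs and Hbb-bt on this list are the targeted genes, so their part in these sums cannot be read as a change in other cells. The alpha- and beta-globin genes made up nearly all of these sums, and Klf1, Epb42 and Slc4a1, the markers above 0, were at log2 fold changes of 1.15, 0.57 and 0.29 with overlapping groups. All 10 neutrophil lineage markers were above 0, with a median log2 fold change of 1.60. At an unadjusted p under 0.05 there were 8 of 10 (background 4.89%), with none called by edgeR and 2 by DESeq2 (background 1.16%). Their sums were 19.3 to 39.2 CPM in WT against 27.9 to 128 in Hbb-cKO, the lowest of the latter in Hbb-cKO 2. The 6 B cell precursor markers tested had a median of 0.65. All 8 markers summed to 42.8 to 51.2 against 47.4 to 56.4 CPM, and most of each sum was Ebf1, which was at 0.05 and is also expressed outside B cells. Of the 10 skeletal muscle markers 8 were below 0, with a median of -0.37. At an unadjusted p under 0.05, 4 of 10 were lower (background 5.22%) and 0 higher, with none called by edgeR or DESeq2. Of the 10 chondrocyte markers 8 were above 0, with a median of 0.06, and 0 had an unadjusted p under 0.05. The part of any of these cells in the levels of histone cluster or S phase genes was not tested. The difference between the S phase genes and the histone cluster genes was not tested either.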

How the data were processed

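Poly(A) RNA of 6 libraries was sequenced by the authors, and the deposited table gives whole-number counts of reads per gene, not normalized, with 1 column per library. In the submitters' processing notes stand HISAT2 2.1.0, fastp 0.19.5 and CASAVA 1.8, together with edgeR and StringTie. For the counter, its strand setting and its treatment of reads with several matches nothing was stated, and reads of near-identical histone genes may be divided or dropped by such settings. Of the 55227 gene identifiers in GENCODE M21, 54870 (99.4%) had the GRCm38 position of that annotation, including all 67 members.

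Counts were tested with edgeR 4.0.16 in R 4.3.3 (filterByExpr with its minimum count of 10, TMM, robust quasi-likelihood fit, Benjamini-Hochberg adjustment over all genes tested), and DESeq2 1.42.0 was an alternative. Scripts were tested on simulated data. Levels are CPM of the TMM-scaled library, given as mean ± s.e.m., and fold changes are Hbb-cKO over WT. Sums carry no test. No library pair differed by less than sampling noise (smallest chi-square per gene 20.2).

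Members described in full were the 14 with the highest mean level, the highest of each class and cluster, and any with an unadjusted p under 0.05. From each comparison list the 3 most abundant genes and any called gene were named. Members and lists were chosen with earlier results of these data known. Alternatives were other scalings, filters, a replicate block and leaving out each library.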

Additional observations from a re-analysis of the deposited data

How the results depend on the processing

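No histone cluster gene passed the threshold under any alternative run: DESeq2, RLE factors, TMM without the adult globin genes, no filter, a filter of 1 CPM in 3 libraries, a replicate block and leaving out each library. Over all genes 18 were called, against 60 with no filter, 236 with DESeq2, 4 with the replicate block and 1 (without WT 1) to 39 (without WT 3) without 1 library. The 4 comparison lists, with the cell type markers not counted, hold 11, 18, 21 and 28 genes. From these lists 1 gene was called, where 0.105% of all genes tested were. DESeq2 called 4, where it called 1.16% of all genes, and 3 of those 4 were S phase genes. The number was 3 with no filter, 0 with the replicate block and 0 to 1 without 1 library. Libraries of the same number did not deviate together (correlations of -0.026, -0.108 and -0.029), and those of unlike number were at -0.0741 to 0.0966. With 3 libraries per group these values show no pairing by number and cannot exclude one.

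The median log2 fold change of the tested members stayed between -0.23 and -0.13 in those alternatives. For the genes with the old prefix, an alternative chosen after seeing the data, it was -0.091, over the only 2 of the 8 that were tested. The summed level of -0.24 on the log2 scale ran from -0.32 to -0.15 without 1 library. In further alternatives chosen in that way, it was -0.11 for the 8 genes with the old prefix and 0.27 for the members not tested, where H2ac18 in 1 library decides the sign. For 14 tested members, which leaves out H2bc9, Hist1h2ao and Hist1h2bq, 160 of 167 single values kept their direction and side of the threshold. The others changed sign: H3c14 was at 0.17 with the replicate block and at -0.55 to 0.55 without 1 library, H2bc6 at -0.13 to 0.11, and H3c15 at -0.001 to 0.67. The cause was not tested. Counts under about 10 per library limit most members.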

Other observations

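Most of the germ cell histone genes looked at outside the clusters were at or near 0 counts in these libraries, and all were chosen after the other values had been seen. The exception was Hils1, a spermatid linker histone, with 15, 9 and 13 counts in WT and 20, 16 and 13 in Hbb-cKO, 86 in all. H1f8, the oocyte linker histone, had 13 counts over the 6 libraries, H1f7, another spermatid linker histone, had 1, and H2ab3 had 5. H2ab1, H2ab2, H2al3 and H2bl1 had 0. The pseudogene rows of the histone clusters, H2bu1-ps, H2ac14 and Hist1h2al, had 8, 7 and 3 counts.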
